A study of Mus musculus with 7 samples.

Results

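The 51 genes followed here carry out DNA replication and mitosis. They were chosen by symbol and comprised 25 mitotic genes and 26 genes of DNA replication, nucleotide synthesis and entry into S phase. All 51 were among the 28987 genes of the expression table, and each was above 0 in every library. No member stayed under 1 TPM (a share of all transcripts, corrected for transcript length) in all libraries, and all 51 passed the filter on low values in every fit.

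Cells copy their DNA in S phase and divide it in mitosis, and the RNAs for these steps peak at different times. E2F factors switch on the replication genes at the passage from G1 to S phase, and the mitotic genes follow in G2 through CHR and CCAAT promoter elements. In bone marrow, stem and progenitor cells and early neutrophil precursors divide, while maturing Ly6G+ neutrophils leave the cell cycle.

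The 7 RNA sequencing libraries came from the bone marrow of individual C57BL/6 mice. Hematopoietic stem and progenitor cells (HSC/P) were enriched for CD117, the stem cell factor receptor, and the mutant clone was then sorted, giving 1 library with overexpressed HMGA2, a chromatin protein (HMGA2-OE), and 2 with HMGA2-OE plus a mutation of the blood transcription factor RUNX1 (RUNX1mut/HMGA2-OE). Sorted Ly6G+ myeloid cells gave a Control, a RUNX1mut, an HMGA2-OE and a RUNX1mut/HMGA2-OE library, 1 each. Every HSC/P library thus carried HMGA2-OE, and only the double genotype in HSC/P was replicated. The sources used here do not give the age of the mice, the RUNX1 allele, the driver of HMGA2 or the mark of the mutant clone. Lists of 3 HSC/P values below are in the order HMGA2-OE, then RUNX1mut/HMGA2-OE replicates 1 and 2, and lists of 4 Ly6G+ values in the order Control, RUNX1mut, HMGA2-OE, RUNX1mut/HMGA2-OE.

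The label checks and the depth bear on all results. Runx1 was at 18.9 TPM in the HMGA2-OE HSC/P library and at 219 and 225 TPM in the other two, and at 3.36 and 3.85 TPM in the Ly6G+ libraries without the mutation against 11.6 and 21.2 TPM in those with it. Hmga2 lay between 138 and 176 TPM in HSC/P, at 1.36 and 1.45 TPM in Ly6G+ libraries without HMGA2-OE and at 3.72 and 12.1 TPM in those with it. Kit was at 61.8 to 155 TPM in HSC/P and at 3.43 to 5.20 TPM in Ly6G+ cells. Ly6g was at 270 to 441 TPM in Ly6G+ cells, and in the 3 HSC/P libraries at 136, 7.28 and 16.8 TPM. The calprotectin subunit S100a8 took 44.3%, 40.2% and 55.0% of the listed TPM in the Ly6G+ Control, RUNX1mut and HMGA2-OE libraries but 3.11% in Ly6G+ RUNX1mut/HMGA2-OE, so the TPM of all other genes there are set by different remainders. The read depth behind these values is unknown, and fewer cells of a type cannot be told apart from less RNA per cell.

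Promoters of the 2 groups are shown as examples, because the shares with a CHR or an E2F match differed between the groups. The 250 bases before the transcription start were found in RefSeq (GRCm38.p6) for 43 members, 21 mitotic and 22 replication, and were searched on both strands for the CHR (TTTGAA), the CCAAT box (CCAAT) and E2F sites (TTCCCGC or TTGGCGC). Sites overlapping one another were each counted. Capitals mark these letters on either strand in the mitotic promoters of Top2a, which encodes topoisomerase II alpha, and of cyclin B2 (Ccnb2), and in the replication promoters of the helicase subunits Mcm5 and Mcm6:

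Top2a, chr11:99024190-99024439, minus strand: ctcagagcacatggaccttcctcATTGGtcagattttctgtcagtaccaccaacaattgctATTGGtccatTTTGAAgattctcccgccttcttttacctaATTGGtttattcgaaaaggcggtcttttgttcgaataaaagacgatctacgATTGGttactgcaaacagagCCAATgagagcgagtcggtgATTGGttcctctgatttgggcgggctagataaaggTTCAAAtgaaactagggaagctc
Ccnb2, chr9:70421555-70421804, minus strand: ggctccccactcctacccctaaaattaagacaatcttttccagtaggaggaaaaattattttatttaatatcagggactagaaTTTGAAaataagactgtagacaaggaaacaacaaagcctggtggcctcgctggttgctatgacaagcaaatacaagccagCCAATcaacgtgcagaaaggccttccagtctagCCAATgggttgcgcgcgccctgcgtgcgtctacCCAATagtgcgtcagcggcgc
Mcm5, chr8:75109259-75109508, plus strand: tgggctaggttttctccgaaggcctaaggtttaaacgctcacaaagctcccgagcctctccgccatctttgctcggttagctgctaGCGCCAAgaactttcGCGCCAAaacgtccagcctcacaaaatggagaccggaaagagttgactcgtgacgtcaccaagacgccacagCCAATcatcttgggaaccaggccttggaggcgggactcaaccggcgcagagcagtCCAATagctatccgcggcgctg
Mcm6, chr1:128359706-128359955, minus strand: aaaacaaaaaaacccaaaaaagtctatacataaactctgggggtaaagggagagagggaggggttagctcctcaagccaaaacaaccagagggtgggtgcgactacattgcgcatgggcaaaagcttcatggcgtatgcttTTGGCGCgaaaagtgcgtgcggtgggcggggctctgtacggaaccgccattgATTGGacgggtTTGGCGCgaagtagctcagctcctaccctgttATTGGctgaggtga

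Top2a had 2 CHR and 6 CCAAT matches, and Ccnb2 had 1 CHR and 3 CCAAT matches, with no E2F match in either. Mcm5 and Mcm6 each had 2 E2F and 2 CCAAT matches and no CHR. Other members did not all follow this split. Mcm2 had 1 CHR and no E2F match, and Cdk1 had 2 CHR and 1 E2F match. The CHR was found in 8 of 21 mitotic promoters (38.1%) and 3 of 22 replication promoters (13.6%), against 16.3% of all 27025 RefSeq promoters of this length and 10.7% of the 9539 whose genes were at 1 TPM or more in at least 2 libraries. An E2F site was found in 3 of 21 mitotic promoters (14.3%) and 10 of 22 replication promoters (45.5%), against 5.71% of all and 958 of the 9539 expressed. The CCAAT box was common in both groups, at 85.7% and 72.7% against 34.5% of all and 36.9% of those expressed. A match describes letters in this window only.

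Levels per library came first. The mitotic members summed to 2479, 1890 and 2272 TPM in HSC/P and to 669, 749, 410 and 877 TPM in Ly6G+ cells. The replication members summed to 3159, 2831 and 2820 TPM in HSC/P and to 179, 275, 138 and 380 TPM in Ly6G+ cells. Replication transcripts thus outweighed mitotic ones in each HSC/P library, and mitotic transcripts outweighed replication ones in each Ly6G+ library. The ratio of the mitotic to the replication sum, which does not depend on scaling between libraries, was 0.785, 0.668 and 0.806 in HSC/P and 3.75, 2.73, 2.96 and 2.31 in Ly6G+ cells. Within Ly6G+ cells it was lower in each library with mutant RUNX1 than in its counterpart without. The heat map of levels shows the members behind these sums.

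**Figure D1:**
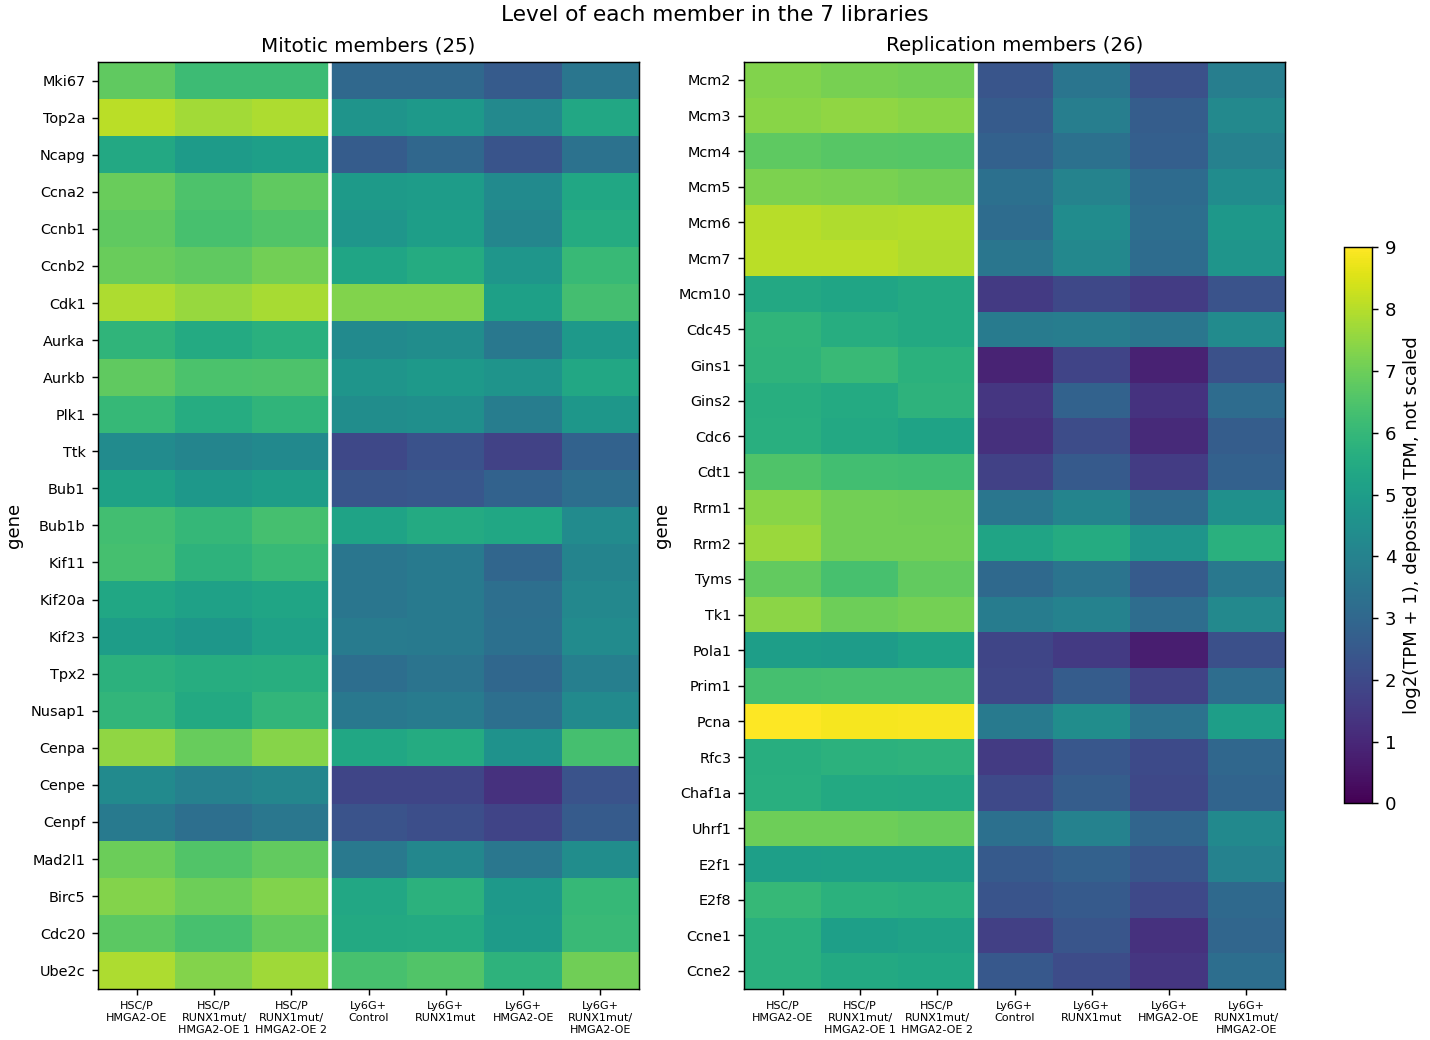
Level of each of the 51 members as log2(TPM + 1), from deposited TPM without scaling between libraries, by library, with the mitotic members on the left and the replication members on the right. The white line parts the 3 HSC/P from the 4 Ly6G+ libraries. All 51 members are darker in each Ly6G+ than in each HSC/P library, with a larger median drop for the replication members. By mean TPM in Ly6G+ cells the brightest mitotic members are Cdk1 (106), Ube2c (90.7), Cenpa (47.1), Birc5 (46.9) and Cdc20 (46.1). The brightest replication member there is Rrm2 (39.9).

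**Figure D2:**
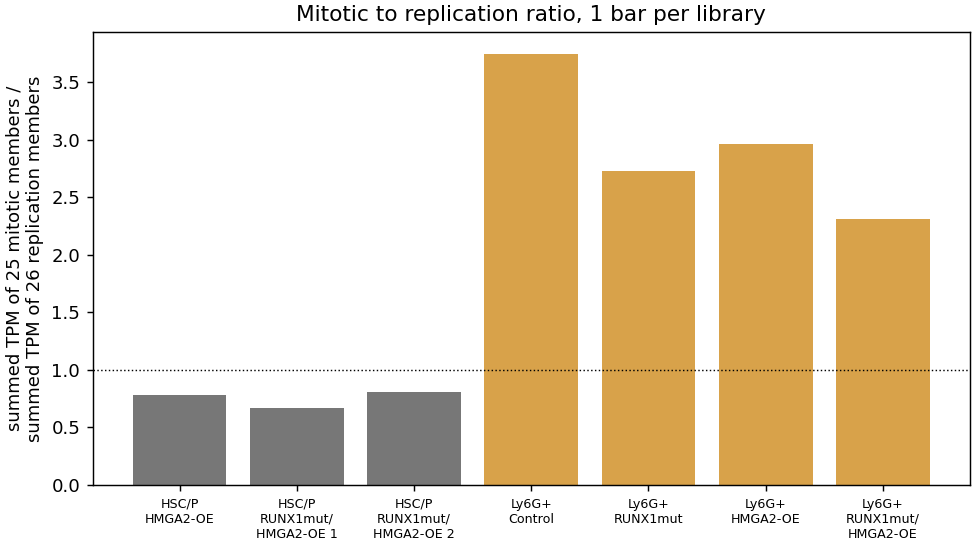
Summed TPM of the 25 mitotic members divided by summed TPM of the 26 replication members, 1 bar per library, with no replicate error. The dotted line marks equal sums, and the 3 HSC/P libraries (0.668 to 0.806) lie below it and the 4 Ly6G+ libraries (2.31 to 3.75) above it.

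The first comparison set HSC/P against Ly6G+ cells. In deposited TPM all 51 members were higher in each HSC/P library than in each Ly6G+ library, which 66.5% of 12881 tested genes also were. The ratio of the HSC/P mean (n = 3) to the Ly6G+ mean (n = 4) had a median of 3.23 over the mitotic members (2.08 to 11.2) and 11.9 over the replication members (3.61 to 29.9), against 3.99 over all genes tested. The mitotic group thus sat near the general ratio of these libraries and the replication group above it.

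Among the replication genes, Pcna, the sliding clamp of DNA polymerase, was at 511, 465 and 478 TPM in HSC/P and at 11.7, 20.1, 9.46 and 32.1 TPM in Ly6G+ cells, a ratio of means of 26.4. Gins1, a subunit of the GINS complex of the replicative helicase, was at 56.8, 68.1 and 53.1 TPM against 0.861, 2.57, 0.831 and 3.69 TPM, a ratio of 29.9. The origin licensing factor Cdt1 was at 91.3, 76.0 and 73.9 TPM against 2.34, 4.88, 2.03 and 6.02 TPM. For all 3 the lowest HSC/P value was above the highest Ly6G+ value by a wide margin, and the Ly6G+ libraries with mutant RUNX1 were the higher ones.

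The MCM2 to MCM7 proteins form the ring that unwinds DNA. Mcm7 was at 270, 266 and 240 TPM in HSC/P and at 10.6, 17.4, 8.07 and 25.2 TPM in Ly6G+ cells. Mcm6 was at 260, 240 and 246 TPM against 8.03, 19.8, 8.53 and 27.0 TPM. Mcm3 was at 168, 180 and 169 TPM against 5.05, 13.3, 5.23 and 17.9 TPM. The highest Ly6G+ value of these 3 subunits was in RUNX1mut/HMGA2-OE in these TPM and in RUNX1mut after scaling. Mcm10, a partner of the helicase, was at 41.9, 38.0 and 43.6 TPM against 1.92, 2.90, 2.02 and 3.97 TPM. The primase subunit Prim1 was at 79.4, 81.6 and 82.6 TPM against 2.81, 5.08, 2.43 and 8.36 TPM. The nucleotide salvage enzyme Tk1 was at 173, 130 and 139 TPM against 12.7, 15.1, 8.23 and 18.0 TPM. In each of these genes too the 2 cell types did not overlap.

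The mitotic genes kept higher levels in Ly6G+ cells. Ube2c, the ubiquitin-conjugating partner of the anaphase-promoting complex, was at 235, 161 and 210 TPM in HSC/P and at 81.6, 94.2, 55.8 and 131 TPM in Ly6G+ cells. Its activator Cdc20 was at 105, 82.5 and 117 TPM against 43.6, 44.5, 29.6 and 66.9 TPM. The cytokinesis motor Kif23 was at 31.3, 26.5 and 34.1 TPM against 12.4, 12.0, 8.92 and 19.1 TPM. These are members with low ratios of means, at 2.22, 2.20 and 2.33. The histone H3 variant of centromeres, Cenpa, was at 183, 120 and 163 TPM against 40.4, 45.2, 23.3 and 79.5 TPM. The chromosomal passenger kinase Aurkb was at 109, 87.5 and 89.7 TPM against 24.8, 28.4, 24.1 and 41.0 TPM.

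Other mitotic members were further apart. Top2a (chr11:98992943-99024189, minus strand) was at 265, 212 and 237 TPM against 24.4, 27.9, 17.9 and 40.9 TPM, a ratio of 8.57 (gene coordinates here are GRCm38, the build also called mm10). The proliferation antigen Mki67 (chr7:135689784-135716361, minus strand) was at 112, 71.5 and 70.2 TPM against 7.26, 7.27, 4.97 and 10.7 TPM, a ratio of 11.2. The spindle motor Kif11 was at 79.9, 56.0 and 66.0 TPM against 10.5, 11.7, 6.84 and 15.8 TPM, a ratio of 6.00. Mki67 had the highest ratio of the mitotic members, near the median of the replication members.

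For the test, the 5 libraries with HMGA2-OE were scaled to one another by a trimmed mean of log ratios. This scaling assumes that most genes do not differ. The libraries were then fitted in limma with cell type and RUNX1 genotype as terms. The 2 residual degrees of freedom hold the RUNX1mut/HMGA2-OE HSC/P pair and any difference of the RUNX1 effect between the cell types. The standard errors are thus not a spread of replicates alone. Of 12686 genes, 8212 passed a Benjamini-Hochberg adjusted p of 0.05, 64.7% (32.2% higher and 32.5% lower in HSC/P). Of the replication members 23 of 26 were higher in HSC/P and none was lower, with a median log2 difference of 1.64. Cdc45, E2f1 and Rrm2 did not pass, at log2 differences of -0.11, 0.05 and 0.19. Of the mitotic members 6 were higher and 3 lower, with a median of -0.14, against 0.10 over all genes tested.

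By role, 9 of 10 helicase genes, both licensing genes, 3 of 4 nucleotide synthesis genes, all 6 polymerase, clamp and chromatin assembly genes and 3 of 4 G1/S regulators passed as higher. Pcna had a log2 difference of 2.77 ± 0.22 (standard error, limma adjusted p = 0.00125), Gins1 one of 2.75 ± 0.26 and Cdt1 one of 2.41 ± 0.21. The mitotic genes higher in HSC/P were Mki67 (1.55 ± 0.20), Top2a (1.17 ± 0.15), the checkpoint protein Mad2l1 (0.96 ± 0.15), the motors Kif11 and Cenpe (0.72 each) and the spindle assembly factor Tpx2 (0.40 ± 0.12). Lower in HSC/P after scaling were Cdc20 (-0.77 ± 0.20, limma adjusted p = 0.0265), Ube2c (-0.71 ± 0.20, adjusted p = 0.0357) and Kif23 (-0.70 ± 0.16, adjusted p = 0.0204). None of the 4 mitotic cyclin and CDK genes and none of the 6 mitotic kinases passed.

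**Figure D3:**
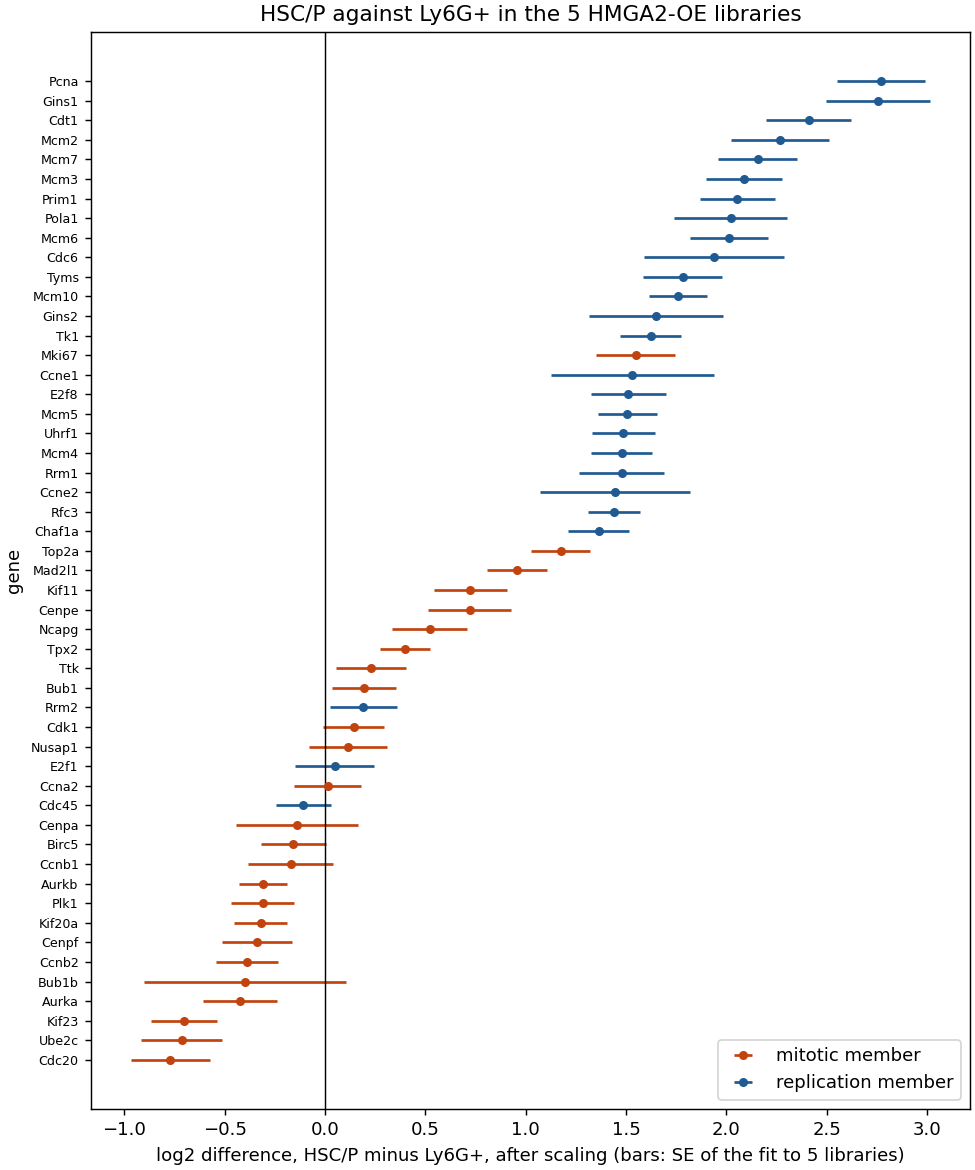
Log2 difference of each member between HSC/P and Ly6G+ cells after scaling, in the 5 libraries with HMGA2-OE, with bars for the standard error of the limma fit. Replication members (blue) fill the upper part from 1.36 to 2.77, except Cdc45, E2f1 and Rrm2, and mitotic members (orange) spread around 0 from -0.77 to 1.55.

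The sign for the mitotic group rests on the scaling. Without scaling, the median of all genes tested was 1.46 in place of 0.10, the mitotic median 1.71 and the replication median 3.35, and 23 mitotic and all 26 replication members passed as higher (background 64.4%) with none lower (background 8.88%). Cdc20, Ube2c and Kif23 were then higher in HSC/P, at 1.08, 1.15 and 1.09. With upper-quartile scaling the medians were 0.43 and 2.17, against 0.55 over all genes tested. After the main scaling 23 of 26 replication and 7 of 25 mitotic members were higher in each HSC/P than in each Ly6G+ library (background 35.1%). The replication median lay above that of all genes under each of the 3 scalings. Of the mitotic and replication genes outside the 51, 17 of 59 and 38 of 48 passed as higher, and 7 and 3 as lower. Among them were Ung (3.58 ± 0.16), which removes uracil from DNA, the histone chaperone Nasp (2.98 ± 0.25) and the dUTPase Dut (2.88 ± 0.19). At the other end were E2f2 (-1.95 ± 0.19), the nucleoside kinase Dck (-1.77 ± 0.12) and the separase inhibitor Pttg1 (-1.84 ± 0.28).

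The second comparison asked how the RUNX1 mutation related to these genes in HSC/P that overexpress HMGA2. One group was a single library and the other a pair. No gene of 12226 passed (0 called, 0%; limma, smallest adjusted p = 0.109), 1894 had an unadjusted p under 0.05, and 1 gene passed without scaling. Of the 51 members 50 had a log2 difference below 0, against 50.1% of all genes tested, and 14 had an unadjusted p under 0.05 in that direction, against 6.76% of all. The median was -0.40 over the mitotic and -0.26 over the replication members, and -0.00117 over all genes tested.

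Mki67 had the lowest value. At 112 TPM in HMGA2-OE and 71.5 and 70.2 TPM in RUNX1mut/HMGA2-OE, it gave a log2 difference of -0.79 ± 0.13 (limma adjusted p = 0.162). Cyclin E1 (Ccne1), which starts S phase with CDK2, was at 51.8 TPM against 33.0 and 35.0 TPM (-0.74 ± 0.14, adjusted p = 0.198). Rrm2, the small subunit of ribonucleotide reductase, was at 197 TPM against 135 and 136 TPM (-0.69 ± 0.11, adjusted p = 0.167). In these 3 genes the replicates were close to each other and both below the HMGA2-OE library.

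Members at the other end barely differed. The clamp loader subunit Rfc3 was at 49.0 TPM against 54.1 and 55.3 TPM and at a log2 difference of 0.01 ± 0.13 after scaling. Gins1, at 56.8 TPM against 68.1 and 53.1 TPM, had one of -0.06 ± 0.22. Mcm3, at 168 TPM against 180 and 169 TPM, had one of -0.09 ± 0.13. The helicase group had a median of -0.24 and the polymerase, clamp and chromatin assembly group one of -0.16, while the nucleotide synthesis genes were at -0.50 and the G1/S regulators at -0.47. The G1/S repressor E2f8 was at 64.3 TPM against 52.6 and 49.7 TPM (-0.47 ± 0.14), while E2f1 was at 32.7 TPM against 33.8 and 33.6 TPM.

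Both RUNX1mut/HMGA2-OE libraries were below the HMGA2-OE library for all 25 mitotic members and for 24 of 26 replication members, with Gins1 between them and Rfc3 above it. Such a separation was found in 39% of all genes tested. The replicates differed in the mitotic genes, with medians of -0.50 in replicate 1 and -0.30 in replicate 2, and 22 of 25 mitotic members were lower in replicate 1. For the replication members the medians were -0.27 and -0.31. Without scaling all 25 mitotic but 20 of 26 replication members stayed below 0, while the median of all genes tested moved to 0.14.

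**Figure D4:**
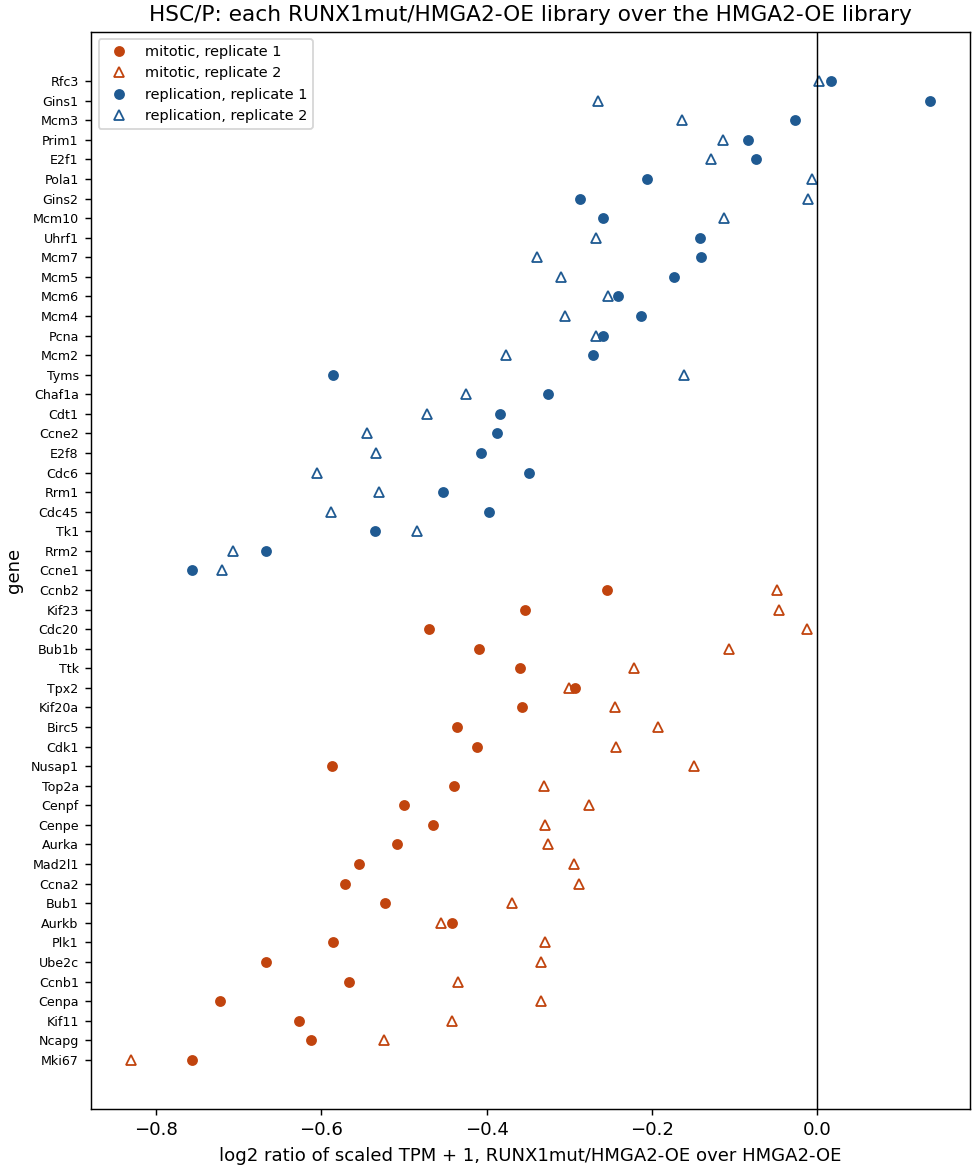
Log2 ratio of scaled TPM + 1 in each RUNX1mut/HMGA2-OE HSC/P library (circles, replicate 1; triangles, replicate 2) over the 1 HMGA2-OE HSC/P library, by member. All 25 mitotic members (orange) lie left of 0 in both, and of the replication members (blue) Rfc3 and, in replicate 1, Gins1 do not.

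The other genes of both processes showed like counts, with 54 of 59 mitotic genes (median -0.33) and 42 of 48 replication genes (median -0.29) below 0 and none called. Their lowest values were those of the cytokinesis protein Anln (-0.69 ± 0.19) and of E2f2 (-0.79 ± 0.18), and the highest that of Rrm2b (0.48 ± 0.22), a p53-induced ribonucleotide reductase subunit. Marker genes of other cells moved alongside. All 6 secondary granule markers of neutrophils were lower (median -2.15, summed at 12343 scaled TPM against 2111 and 3401), as were 8 of 8 erythroid markers (median -1.04; scaled sums 1336 against 644 and 1288). Of 6 primary granule markers of early neutrophil precursors, 5 were lower and 1 higher (median -0.51). Their scaled sums were 8322 against 9077 and 4504. Of 6 mature neutrophil markers 4 were lower and 2 higher (median -0.98). All 6 HSC/P markers were higher (median 1.22, scaled sums 358 against 840 and 694), and so were all 5 megakaryocyte markers (median 1.67). No marker of these lists was at 0, and the part of cell makeup in the members' values was not tested.

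The third comparison took the RUNX1 mutation in Ly6G+ cells, in an additive fit of RUNX1 and HMGA2-OE to the 4 libraries, with 1 residual degree of freedom. With 1 library per genotype, that degree of freedom holds the departure from additive effects and no spread of replicates. No gene of 9820 passed (0 called, 0%; limma, smallest adjusted p = 0.331), 1407 had an unadjusted p under 0.05, and 133 passed without scaling (1.35%), none of them a member. After scaling 24 of 26 replication members had values above 0, against 50.8% of all genes tested, with a median of 0.35. The mitotic members had 11 of 25 above 0 and a median of -0.06. At an unadjusted p under 0.05 there were 10 replication members and no mitotic member in the higher direction (background 7.71%).

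Gins2, another GINS subunit (chr8:120578633-120589304, minus strand), was at 1.84 and 2.13 scaled TPM in Control and HMGA2-OE and at 6.01 and 5.15 scaled TPM in RUNX1mut and RUNX1mut/HMGA2-OE. Its log2 difference was 1.14 ± 0.16 (limma adjusted p = 0.331). Mcm3 was at 5.60 and 7.58 against 13.1 and 11.3 scaled TPM (0.81 ± 0.21). Both mutant libraries were above both others, and the same held for Mcm2 at 4.67 and 5.43 against 10.1 and 8.55 scaled TPM (0.77 ± 0.17). Mcm6 was at 8.92 and 12.3 against 19.4 and 17.1 scaled TPM (0.74 ± 0.21). The origin licensing ATPase Cdc6 was at 1.52 and 1.61 against 3.19 and 3.33 scaled TPM (0.73 ± 0.14), and Ccne1 at 2.48 and 2.08 against 4.12 and 4.32 scaled TPM (0.67 ± 0.15). In all of these the groups did not overlap.

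Over the replication members, both mutant libraries exceeded both others in 17 of 26, against 26.1% of all genes tested, and over the mitotic members in 3 of 25. The helicase genes had a median of 0.59, with 9 of 10 above 0 and Cdc45 at -0.21. The nucleotide synthesis genes had a median of 0.05. Rrm2 was at 41.5 and 36.1 against 44.9 and 32.6 scaled TPM and Tk1 at 14.0 and 11.9 against 14.8 and 11.4 scaled TPM, with 1 mutant library above and 1 below both others. Rrm1, the large subunit of ribonucleotide reductase, was at 11.7 and 11.2 against 15.2 and 13.9 scaled TPM, and here both mutant libraries were above both others. Rfc3 was at 2.21 scaled TPM in Control and between 4.39 and 4.46 scaled TPM in the other 3. Without scaling, all 26 replication and 24 of 25 mitotic members were above 0, with medians of 0.97 and 0.59 against 0.58 over all genes tested, so the mitotic median stayed at the level of all genes.

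The pairs of single libraries, which have no replicate and no test, gave both directions of the design. RUNX1mut over Control had a median log2 ratio of 0.51 over the replication and -0.02 over the mitotic members, with 3 replication members at 2-fold or more (background 5.36%), namely Gins2, Mcm3 and Mcm6. RUNX1mut/HMGA2-OE over HMGA2-OE had medians of 0.35 and -0.01, with 21 of 26 replication members above 0 and none at 2-fold (background 4.93%). Pola1, the catalytic subunit of polymerase alpha, and cyclin E2 (Ccne2) went opposite ways, lower in the first pair and higher in the second. Mcm10 (0.30 and -0.16), Rrm2, Tyms and Tk1 also changed sign, higher in the first pair and lower in the second. Ccne2 was at 5.02, 3.21, 2.40 and 5.38 scaled TPM in the 4 Ly6G+ libraries, and Pola1 at 2.96, 1.84, 1.02 and 2.30 scaled TPM.

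**Figure D5:**
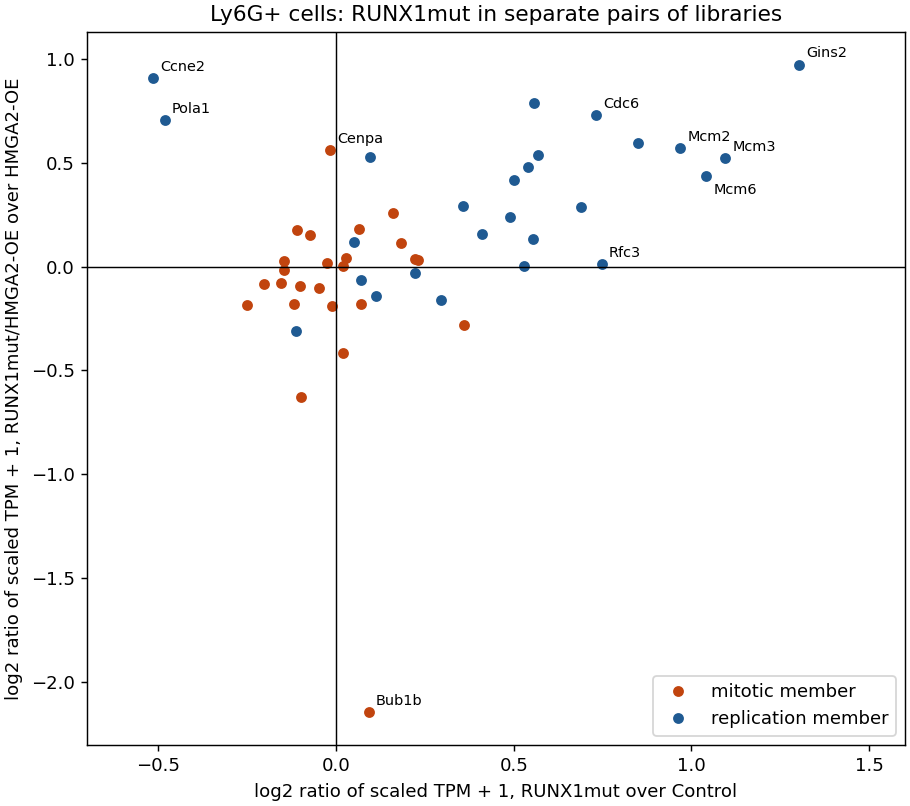
Log2 ratio of scaled TPM + 1 in Ly6G+ cells, RUNX1mut over Control (horizontal) against RUNX1mut/HMGA2-OE over HMGA2-OE (vertical), 1 point per member. Replication members (blue) lie mostly to the upper right, with Gins2 at 1.30 and 0.97, while mitotic members (orange) lie between -0.25 and 0.36 on the horizontal axis and, apart from Bub1b at -2.15, between -0.63 (Bub1) and 0.56 (Cenpa) on the vertical axis.

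Markers moved with the RUNX1 term too. Of 6 primary granule markers, which mark early neutrophil precursors, 5 were above 0 (median 1.44), with Mpo at 1.87 ± 0.60 and Fcnb, the exception, at -0.53 ± 0.10. Their sum was 368 and 503 scaled TPM in Control and HMGA2-OE. In RUNX1mut and RUNX1mut/HMGA2-OE it was 711 and 512 scaled TPM, so the sum of the double genotype was at the level of HMGA2-OE. In TPM without scaling the same sums were 332 and 347 against 725 and 808. By gene, 4 of these 6 markers were higher and 2 lower in RUNX1mut/HMGA2-OE than in HMGA2-OE (median log2 ratio 0.43, scaled). Of 5 tested HSC/P markers 4 were above 0 (median 1.20; scaled sums 15.0 and 20.0 against 36.9 and 30.6), and Gata2 was at 0.17 and 0.27 against 2.27 and 2.69 TPM without scaling. Of 7 erythroid markers 6 were above 0 (median 1.34), of 5 megakaryocyte markers all (median 1.43), and of 5 B lymphoid markers all (median 0.80), while all 6 mature neutrophil markers were below 0 (median -0.63). The part of these cells in the replication genes was not tested. Of the other genes, 33 of 45 tested replication genes (median 0.27) and 35 of 58 tested mitotic genes (median 0.05) were above 0, led by Chaf1b (1.32 ± 0.72), Shmt1 (0.99 ± 0.13) and Rfc4 (0.96 ± 0.26) of the former.

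The HMGA2-OE term of the same fit had no called gene either (0 of 9820, 0%; limma, smallest adjusted p = 0.256, 639 genes at an unadjusted p under 0.05), and 61 passed without scaling and 58 in the fit to all 7 libraries. The mitotic members had 21 of 25 below 0, against 47.8% of all genes tested, with a median of -0.11, and the replication members 15 of 26 with a median of -0.02. Without scaling, 12 and 5 were below 0 and the medians were 0.013 and 0.11. Cdk1, the kinase that drives entry into mitosis (chr10:69335146-69352938, minus strand), stood apart. It was at 239, 196 and 227 TPM in HSC/P and at 154, 158, 33.7 and 78.5 TPM in Ly6G+ cells, or 171, 155, 48.8 and 49.7 scaled TPM. Its log2 difference was -1.70 ± 0.11 (limma adjusted p = 0.280), and in the fit to all 7 libraries it passed at -1.73. The other cyclin and CDK members, Ccna2, Ccnb1 and Ccnb2, were at -0.22, -0.17 and -0.14.

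Bub1b, the spindle checkpoint protein BubR1, was the member with the most uneven pattern. It was at 77.1, 63.0 and 80.6 TPM in HSC/P and at 36.3, 43.9, 39.9 and 19.3 TPM in Ly6G+ cells. Scaled within the 4 Ly6G+ libraries, it was at 40.3, 43.1, 57.8 and 12.3 scaled TPM, so the RUNX1mut/HMGA2-OE library alone was low. Its checkpoint partner kinase Bub1 was at 4.71, 4.33, 8.88 and 5.39 scaled TPM, with HMGA2-OE alone high (0.53 ± 0.20). E2f1 was at 5.46, 5.90, 6.19 and 9.39 scaled TPM, and the kinetochore protein Cenpf at 4.30, 3.46, 3.76 and 3.18 scaled TPM. Cdk1 and Bub1b each have an annotated transcript of 350 to 420 nt (GENCODE M21), and 9 of the 51 members do. Among the other replication genes, the chaperone Asf1b (557, 158, 17.4 and 41.4 TPM) and the clamp loader subunit Rfc5 (33.1, 37.9, 4.43 and 10.5 TPM; -2.34 ± 0.11) also have one, and the part of such transcripts was not tested.

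The last comparison tested whether the RUNX1 difference was the same in both cell types that overexpress HMGA2, by an interaction term in the 5 libraries. It shares the HMGA2-OE libraries with the comparisons above, so its values are given side by side with them and add no separate evidence. No gene of 12686 passed (0 called, 0%; limma, smallest adjusted p = 0.122; 2297 at an unadjusted p under 0.05; 3250 passed without a filter on low values). The HSC/P difference minus the Ly6G+ difference was below 0 for 24 of 26 replication members (median -0.60) and 22 of 25 mitotic members (median -0.28), against 49.8% of all genes tested. At an unadjusted p under 0.05, 10 replication and 2 mitotic members were lower (background 9.51%) and 1 mitotic member, Bub1b, was higher (background 8.6%).

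The cyclins E had the lowest values, with Ccne1 at -1.60 ± 0.20 (limma adjusted p = 0.156) and Ccne2 at -1.45 ± 0.22, followed by Cdc6 at -1.31 ± 0.27. Ccne1 was at 51.8 TPM against 33.0 and 35.0 TPM in HSC/P and, in Ly6G+ cells, at 2.08 scaled TPM in HMGA2-OE against 4.32 scaled TPM in RUNX1mut/HMGA2-OE. Ccne2 was at 51.7 TPM against 42.9 and 39.6 TPM in HSC/P and at 2.40 against 5.38 scaled TPM in Ly6G+ cells. Cdc6 was at 49.6 TPM against 42.2 and 36.4 TPM and at 1.61 against 3.33 scaled TPM. These scaled values come from the Ly6G+ libraries alone, so their levels cannot be set against the HSC/P TPM. With HMGA2-OE, Ccne1, Ccne2 and Cdc6 were thus lower with the mutation in HSC/P and higher with it in Ly6G+ cells. In the Ly6G+ pair without HMGA2-OE, RUNX1mut over Control, Ccne2 was lower (log2 ratio -0.51) while Ccne1 (0.56) and Cdc6 (0.73) were higher. Gins2, at 49.4 TPM against 44.0 and 55.3 TPM in HSC/P, had an interaction of -1.22 ± 0.30. Bub1b had one of 2.0 ± 0.30 (limma adjusted p = 0.172), Bub1 one of 0.30 ± 0.23 and Mcm10 one of 0.06 ± 0.24. Without scaling the median of all genes tested was -0.77, and Bub1 and Mcm10 were below 0.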

How the data were processed

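The authors' processing used bcl2fastq, CASAVA 1.8 and kallisto with the mouse build mm10, per the submitters' processing notes. Its version and annotation were not given in the sources used here. In the deposited table, with 28987 genes and 7 columns, the unit was read from the values as TPM, since they are fractional and the columns total 896820 to 993009. TPM keeps no read depth, so no counting error can be given.

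Symbols, coordinates and transcript lengths came from GENCODE M21. A test for counts was replaced by limma 3.58.1 (R 4.3.3) on log2(scaled TPM + 1), which understates differences of low genes. Each fit kept genes at 1 TPM or more in at least 2 of its libraries, scaled them by trimmed means of log ratios with equal weights (0.3 of ratios and 0.05 of levels trimmed per side) and moderated variances with a trend. Tests were two-sided, with Benjamini-Hochberg adjustment over all genes of the fit and a threshold of 0.05. Each ± is a standard error from limma. The p-values and standard errors rest on the residual spread of these few libraries. In the HSC/P and interaction fits it came from the RUNX1mut/HMGA2-OE HSC/P pair, and the single libraries were assumed to vary like that pair. In the fit of HSC/P against Ly6G+ cells it came from that pair and from the departure from a RUNX1 effect shared by both cell types. No Ly6G+ genotype had a replicate. In the additive Ly6G+ fit, with 1 library per genotype, it was the departure from additive effects and not a spread of replicates. The procedure was also run on simulated data in which few genes changed and the noise was independent. Such data cannot show how the scaling behaves where most genes differ, as between the cell types. Python 3.11.15, pandas 2.3.3 and matplotlib 3.10.9 were used.

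All 51 members may be named. Values per library are given for the member with the highest mean TPM in each role, for the 3 highest and 3 lowest differences of each test and for the 10 smallest p where more than 10 passed. Of the 59 other mitotic and 48 other replication genes, some of the largest differences are named. The members and lists were chosen with earlier results of these data known. Other settings tried were no scaling, upper-quartile scaling, 0.25 TPM added, no filter, a filter of 5 TPM, no trend, each library left out and wider fits.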

Additional observations from a re-analysis of the deposited data

Results flagged for a closer look

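As a group median, the replication genes had opposite signs in the 2 cell types for the same contrast, RUNX1mut/HMGA2-OE over HMGA2-OE. With the 5 libraries scaled together, their median log2 ratio was -0.29 in HSC/P replicate 1, -0.30 in HSC/P replicate 2 and 0.32 in Ly6G+ cells. The mitotic genes were at -0.49, -0.29 and -0.08. With each cell type scaled alone, 5 of the 26 replication members were lower with the mutation in both, namely Cdc45, Mcm10, Rrm2, Tk1 and Tyms. The difference between the medians was not itself tested, and no single gene passed the interaction test. Both HSC/P ratios share 1 HMGA2-OE library, and the Ly6G+ ratio rests on 1 library of each genotype. On the same scale the primary granule markers summed to 4818 in HMGA2-OE and to 5178 and 2611 scaled TPM in RUNX1mut/HMGA2-OE HSC/P, and to 1229 and 1193 scaled TPM in Ly6G+ HMGA2-OE and RUNX1mut/HMGA2-OE. In TPM without scaling the Ly6G+ sums were 347 and 808, the opposite direction. Per gene, the interaction was below 0 for all 6 primary granule (median -1.01) and all 6 secondary granule markers (median -2.12). All 8 erythroid markers were below 0 too (median -2.54). Of 6 mature neutrophil markers 4 were above 0 (median 1.27), and of 6 HSC/P markers 3 were (median 0.32). The part of these markers was not tested.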

How the results depend on the processing

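No paired analysis was run, because the labels name no matched libraries and replicate numbers only count libraries within a group. The difference of the mitotic and replication medians between HSC/P and Ly6G+ cells, -1.78, kept its sign under every setting run. Without scaling, HSC/P against Ly6G+ cells called 49 members in place of 32, and 73.3% of all genes tested in place of 64.7%. The mitotic median was then 1.71 and the replication median 3.35, with Cdc20, Ube2c and Kif23 at 1.08, 1.15 and 1.09. Upper-quartile scaling gave 0.43 and 2.17, no filter 0.17 and 1.93, and the fit with the interaction a mitotic median of -0.066. Leaving out each library gave mitotic medians from -0.17 to 0.12, replication medians from 1.35 to 2.07 and differences of -1.95 to -1.52. Cdc20, Ube2c and Kif23 lost their calls with upper-quartile scaling, with no filter and without HSC/P RUNX1mut/HMGA2-OE replicate 1 or Ly6G+ RUNX1mut/HMGA2-OE, and kept their sign.

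For HSC/P alone, no scaling gave 1 called gene, medians of -0.26 and -0.11, and Mcm3 and Gins1 at 0.053 and 0.082, and no filter put Rfc3 at -0.020. Leaving out a replicate gave mitotic medians from -0.50 to -0.28, replication medians from -0.29 to -0.27, differences of -0.23 to 0.0069 and Gins1 from -0.25 to 0.13, above 0 without replicate 2. The additive fit to all 7 libraries, which gives both cell types 1 RUNX1 effect, gave -0.24, 0.079 and a difference of -0.32, with Ccne1, Mcm3 and Gins1 at 0.10, 0.40 and 0.44. These values are also those of the Ly6G+ RUNX1 term in that fit.

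For the Ly6G+ RUNX1 term, no scaling gave 133 called genes, medians of 0.59 and 0.97, and Bub1 and Cenpf at 0.23 and 0.32. Leaving out a library gave mitotic medians from -0.018 to 0.012, replication medians from 0.31 to 0.52, differences of -0.54 to -0.31 and Bub1b from -2.15 to 0.12, above 0 without HMGA2-OE (0.092) or RUNX1mut/HMGA2-OE. Leaving out members with a transcript of 350 to 420 nt, chosen after the values were seen, gave mitotic medians of 0.022 here and 0.064 for HSC/P against Ly6G+ cells. For the HMGA2-OE term, no scaling gave 61 called genes (0.621%) and medians of 0.013 and 0.11. The fit to all 7 libraries gave 58 called genes of 12881, 1 of them a member, Cdk1. Leaving out a library gave mitotic medians of -0.17 to -0.10, replication medians from -0.11 to 0.11, differences of -0.28 to 0.011, Pola1 from -0.98 to 0.23 (above 0 without Control or HMGA2-OE) and Bub1b from -1.74 to 0.49 (above 0 without RUNX1mut or RUNX1mut/HMGA2-OE). These fits have no residual degrees of freedom, so they are values with no test.

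For the interaction, no scaling gave medians of -1.27 and -1.46, a difference of 0.19, and Mcm10 and Bub1 at -0.76 and -0.72. Upper-quartile scaling gave a replication median of -0.65, no filter 3250 called genes and a filter of 5 TPM 1. Leaving out an HSC/P replicate gave medians of -0.43 to -0.20 and -0.68 to -0.58, differences of 0.15 to 0.48 and Mcm10 from -0.052, without replicate 2, to 0.092. Single Ly6G+ pairs without scaling had mitotic medians of 0.15, -0.47, 1.06, 0.48 and 0.65 for RUNX1mut over Control, HMGA2-OE over Control, RUNX1mut/HMGA2-OE over HMGA2-OE, over RUNX1mut and over Control, and replication medians of 0.66, -0.17, 1.38, 0.45 and 1.11. Where no cause is named, the cause was not tested.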
